A study of Mus musculus with 6 samples.

Results

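The mouse proteasome genes described here are the 50 protein-coding genes whose symbol in Ensembl release 96 starts with Psma, Psmb, Psmc, Psmd, Psme, Psmf or Psmg followed by a number, out of 55536 annotated genes. The symbol rule also takes in Psmc3ip, whose protein is a recombination factor and no part of the proteasome. Messenger RNA was counted in CAD cells, a catecholaminergic line from the mouse central nervous system that carries simian virus 40 and comes from a C57BL/6 x DBA/2 background. The 3 dexamethasone libraries came from cells kept for 5 days in 100 µM of the synthetic glucocorticoid dexamethasone in medium with 1% serum. The 3 undifferentiated libraries came from proliferating cells in medium with 8% serum. Addition of the steroid and reduction of the serum go together in this design and cannot be told apart, and both groups are a single transformed line used below passage 10.

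The proteasome is the cell's main protease for proteins tagged with ubiquitin. Its 20S core is a barrel of alpha and beta rings, with the active sites of 3 beta subunits on the inside. The 19S cap binds ubiquitin chains, removes them, and uses a ring of ATPases to unfold the protein and feed it into the core. Core and cap together form the 26S proteasome, dedicated chaperones assemble both, and other activators (PA28 and PA200) can replace the cap. Interferons are known to induce Psmb8, Psmb9 and Psmb10, whose products replace the 3 constitutive catalytic subunits in the immunoproteasome, along with Psme1 and Psme2.

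In dexamethasone-differentiated cells the messenger RNA of nearly the whole set was lower. Proteins, assembled particles and protease activity were not measured. Of the 45 genes of the set with enough reads to test, 42 fell, Psmc3ip among them, and 3 rose (Psmb8, Psme1 and Psme2), and none missed the threshold. The median log2 fold change (dexamethasone over undifferentiated, as throughout) was -0.77, a 1.70-fold lower level, beside 0.02 over all tested genes. Calls rest on edgeR's quasi-likelihood test with a Benjamini-Hochberg adjusted p under 0.05 over all 12664 tested genes. By that rule 38.6% of all tested genes were called lower and 40.3% higher, 78.9% together. All 45 genes also had groups that did not overlap, 42 of them with every dexamethasone library below every undifferentiated library, which held for 38.9% of all tested genes, and 3 with every dexamethasone library above, which held for 41%. The 5 untested genes are Psma8, Psmb9, Psmb11, Psmd10 and Psme2b.

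Counted reads summed to between 6411105 and 8757992 in dexamethasone libraries and between 6476847 and 8168939 in undifferentiated libraries, at which 3 reads are worth 0.343 to 0.468 CPM (the reads of a gene relative to the library's total, here unscaled, while all other CPM are scaled by TMM factors). Replicates are labelled as independent with no mention of separate cultures, and the p-values speak only for the spread among these libraries, part or all of which may be technical. Of 9 genes listed for the identity of CAD cells all 9 were tested. Of these 5 were higher and 3 lower, beside 40.3% and 38.6% of all tested genes. Chgb, a core protein of secretory granules, averaged 10000 ± 1124 CPM in dexamethasone libraries and 1028 ± 46.7 CPM in undifferentiated libraries (SD, n = 3 each), and Snap25, a fusion protein of synaptic vesicles, was 2.52-fold higher. Dbh, which makes noradrenaline, was 13.2-fold lower and Gata2, a transcription factor of these neurons, 2.23-fold lower. All 8 listed cell division genes were lower (median log2 fold change -4.74), Mki67 by 29.0-fold and Top2a by 21.4-fold. Their summed level was 132 to 152 CPM in dexamethasone libraries, against 3320 to 3480 CPM in undifferentiated libraries. The part of this difference in the proteasome values was not tested, and fewer expressing cells and less RNA per cell cannot be told apart in bulk libraries.

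The promoters of 5 of these genes are shown because they cover the constitutive core (Psmb5 and Psmb6, both catalytic, and Psmb3), the cap (Psmd4, the subunit gene with the smallest fall) and an activator gene that rose (Psme2). Each is the part of the 250 bases before the RefSeq start that lies in no annotated exon, read 5′ to 3′ on the gene's strand in GRCm38.p6, and capitals mark motif matches.
Psmb5 (chr14:54618023-54618245, minus strand): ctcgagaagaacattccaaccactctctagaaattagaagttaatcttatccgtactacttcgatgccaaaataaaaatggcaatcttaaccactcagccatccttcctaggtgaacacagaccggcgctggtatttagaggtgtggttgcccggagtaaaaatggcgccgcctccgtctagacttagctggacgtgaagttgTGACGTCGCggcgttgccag
Psmb6 (chr11:70525107-70525356, plus strand): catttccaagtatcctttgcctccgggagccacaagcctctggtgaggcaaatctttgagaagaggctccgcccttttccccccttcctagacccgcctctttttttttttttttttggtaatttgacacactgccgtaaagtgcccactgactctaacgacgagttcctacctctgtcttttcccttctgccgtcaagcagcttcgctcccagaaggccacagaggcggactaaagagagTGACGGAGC
Psmb3 (chr11:97703184-97703398, plus strand): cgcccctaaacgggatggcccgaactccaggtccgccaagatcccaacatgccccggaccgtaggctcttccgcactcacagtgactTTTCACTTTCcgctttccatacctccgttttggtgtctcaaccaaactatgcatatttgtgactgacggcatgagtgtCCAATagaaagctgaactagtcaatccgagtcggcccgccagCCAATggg
Psmd4 (chr3:95042615-95042864, minus strand): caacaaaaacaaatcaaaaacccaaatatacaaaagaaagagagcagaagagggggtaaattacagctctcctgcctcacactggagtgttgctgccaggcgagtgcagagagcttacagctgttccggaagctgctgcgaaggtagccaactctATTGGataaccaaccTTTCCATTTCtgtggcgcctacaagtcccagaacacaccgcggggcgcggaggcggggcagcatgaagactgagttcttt
Psme2 (chr14:55591114-55591351, minus strand): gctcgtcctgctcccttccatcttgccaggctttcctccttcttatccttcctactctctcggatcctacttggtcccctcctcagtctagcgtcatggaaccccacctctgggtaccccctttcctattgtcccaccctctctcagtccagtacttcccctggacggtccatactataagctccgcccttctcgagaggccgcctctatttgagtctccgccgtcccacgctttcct
The capitals in Psmb5 and Psmb6 are the antioxidant response element core TGACNNNGC, the motif of the factors NRF1 and NRF2, at 47 to 39 and at 9 to 1 bases before the start. In Psmb3 they are an interferon response element (a GAAA, 2 further bases and a second GAAA, found on the opposite strand) at 163 to 154 bases and 2 CCAAT boxes at 85 to 81 and 43 to 39 bases. In Psmd4 they are a CCAAT box at 95 to 91 bases and an interferon response element at 80 to 71 bases, both on the opposite strand. The Psme2 stretch holds no match to these motifs. The core and cap stretches shown hold such elements more often than their classes do. Of the 27 windows of 26S subunits 14.8% held the antioxidant response element core and 7.41% the interferon response element.

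RefSeq held a window for 42 of the 50 genes, 45 windows in all, and the motifs were searched on both strands of the 250 bases before each start. Of the 45 windows 12 touched no annotated exon, 27 lay partly in one and 6 wholly. Psmb8 is among those last 6, since Ensembl starts the gene further upstream, so its window is not shown. The antioxidant response element core was in 11.1% of the windows of proteasome genes and in 10.2% of all 32851 windows of the table. CCAAT was in 33.3% and 33.8%. The interferon response element was in 6.67% (Psmb3, Psmd4 and Psmd9) and 2.98%. The glucocorticoid receptor element, searched as GNACA and TGTNC with 3 bases between them, was in 2.22%, the single window of Psme2b, and in 0.387% of all windows. That Psme2b window also lies wholly in annotated exons, and the gene had 0 reads in every library. The windows of the 3 genes that rose held none of these motifs. No motifs overlapped in the windows of proteasome genes. A match is only a run of letters in this window, and shares of this size describe the windows without bearing on which factors bind.

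Transcripts of the 20S core fell as a set. All 14 tested core genes were lower, beside 38.6% of all tested genes called lower. Their median log2 fold change was -0.77 (1.71-fold lower), with a range of -1.01 to -0.34. The alpha ring, whose subunits form the gate of the barrel, had a median of -0.78 over 7 genes, and the constitutive beta ring one of -0.68 over 7 genes. Psma4 showed the largest fall of the alpha ring. It had 135, 110 and 132 CPM in dexamethasone libraries, against 263, 242 and 250 CPM in undifferentiated libraries (SE of the log2 fold change 0.063, edgeR adjusted p = 3.91e-14). This was a 2-fold fall, and the lowest undifferentiated library stood well above the highest dexamethasone library. Psma6 had the smallest fall of the ring (-0.53 ± 0.053) and Psma8, the testis form of Psma7, had 0 reads in every library, below a floor of 3 reads. Psma1, Psma2, Psma3, Psma5 and Psma7 lay between, at -0.79, -0.64, -0.78, -0.77 and -0.88. For Psma5 35.2% of the 75-base words of its transcripts also occur in other annotated genes, so its level is uncertain.

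Among beta genes the largest fall was that of Psmb3, a structural subunit without an active site. It had 69.5, 71.0 and 72.1 CPM in dexamethasone libraries and 148, 138 and 141 CPM in undifferentiated libraries (log2 fold change -1.01 ± 0.058 SE, edgeR adjusted p = 5.79e-15). The spread within a group was small beside the gap between the groups. Psmb1, also a structural subunit, had the smallest fall of the core (-0.34 ± 0.047, 1.26-fold lower). Psmb2 and Psmb4 were at -0.61 and -0.68. Psmb11, the thymus form of the catalytic subunit Psmb5, had 0, 1 and 1 reads in dexamethasone libraries and 0 reads in each undifferentiated library, at or under the floor in both groups.

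The 3 catalytic core genes all fell, Psmb7 the most and Psmb5 the least. Psmb5, the chymotrypsin-like subunit (ENSMUSG00000022193, chromosome 14, 54614119 to 54618022 in GRCm38, as for all genes), had 43.2, 41.5 and 41.8 CPM in dexamethasone libraries and 70.9, 69.2 and 62.5 CPM in undifferentiated libraries. It fell, at -0.68 ± 0.072 on the log2 scale (SE, edgeR adjusted p = 1.74e-09). Psmb6, the caspase-like subunit (ENSMUSG00000018286, chromosome 11, 70525367 to 70527858), had 180, 168 and 170 CPM in dexamethasone libraries and 295, 297 and 311 CPM in undifferentiated libraries. The groups of both genes were far apart beside their own spread, and the fall of Psmb6 was -0.80 ± 0.051 (SE, edgeR adjusted p = 4.98e-14). Psmb7, the trypsin-like subunit (ENSMUSG00000026750, chromosome 2, 38588036 to 38644087), had 200, 179 and 173 CPM in dexamethasone libraries and 332, 329 and 349 CPM in undifferentiated libraries. Dexamethasone replicate 1 was the highest of its group, and the fall was -0.87 ± 0.055 (SE, edgeR adjusted p = 5.24e-14). Of the 75-base words in the Psmb5 transcripts 32.9% also occur in those of the annotated gene Gm3375, so its level is uncertain.

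Of the 3 immunoproteasome genes Psmb8 rose, Psmb10 fell by an amount within the range of the core genes, and Psmb9 was not tested. Psmb8, which takes the place of Psmb5 (ENSMUSG00000024338, chromosome 17, 34197721 to 34201454), had 6.86, 6.87 and 9.53 CPM in dexamethasone libraries (62, 63 and 64 reads) and 0.989, 1.15 and 1.14 CPM in undifferentiated libraries (7, 9 and 7 reads). Every dexamethasone library stood several times above every undifferentiated library, a 6.91-fold rise (log2 fold change 2.79 ± 0.273 SE, edgeR adjusted p = 4.37e-10). Psmb10, which takes the place of Psmb7 (ENSMUSG00000031897, chromosome 8, 105935735 to 105938444), had 19.8, 22.8 and 18.8 CPM in dexamethasone libraries and 28.4, 26.3 and 29.4 CPM in undifferentiated libraries. It fell, at -0.44 ± 0.1 on the log2 scale (SE, edgeR adjusted p = 0.000271), and its groups did not overlap. Psmb9, which takes the place of Psmb6 (ENSMUSG00000096727, chromosome 17, 34181987 to 34187764), had 2, 2 and 0 reads in dexamethasone libraries and 5, 0 and 1 reads in undifferentiated libraries. It was near the floor in both groups.

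**Figure D1:**
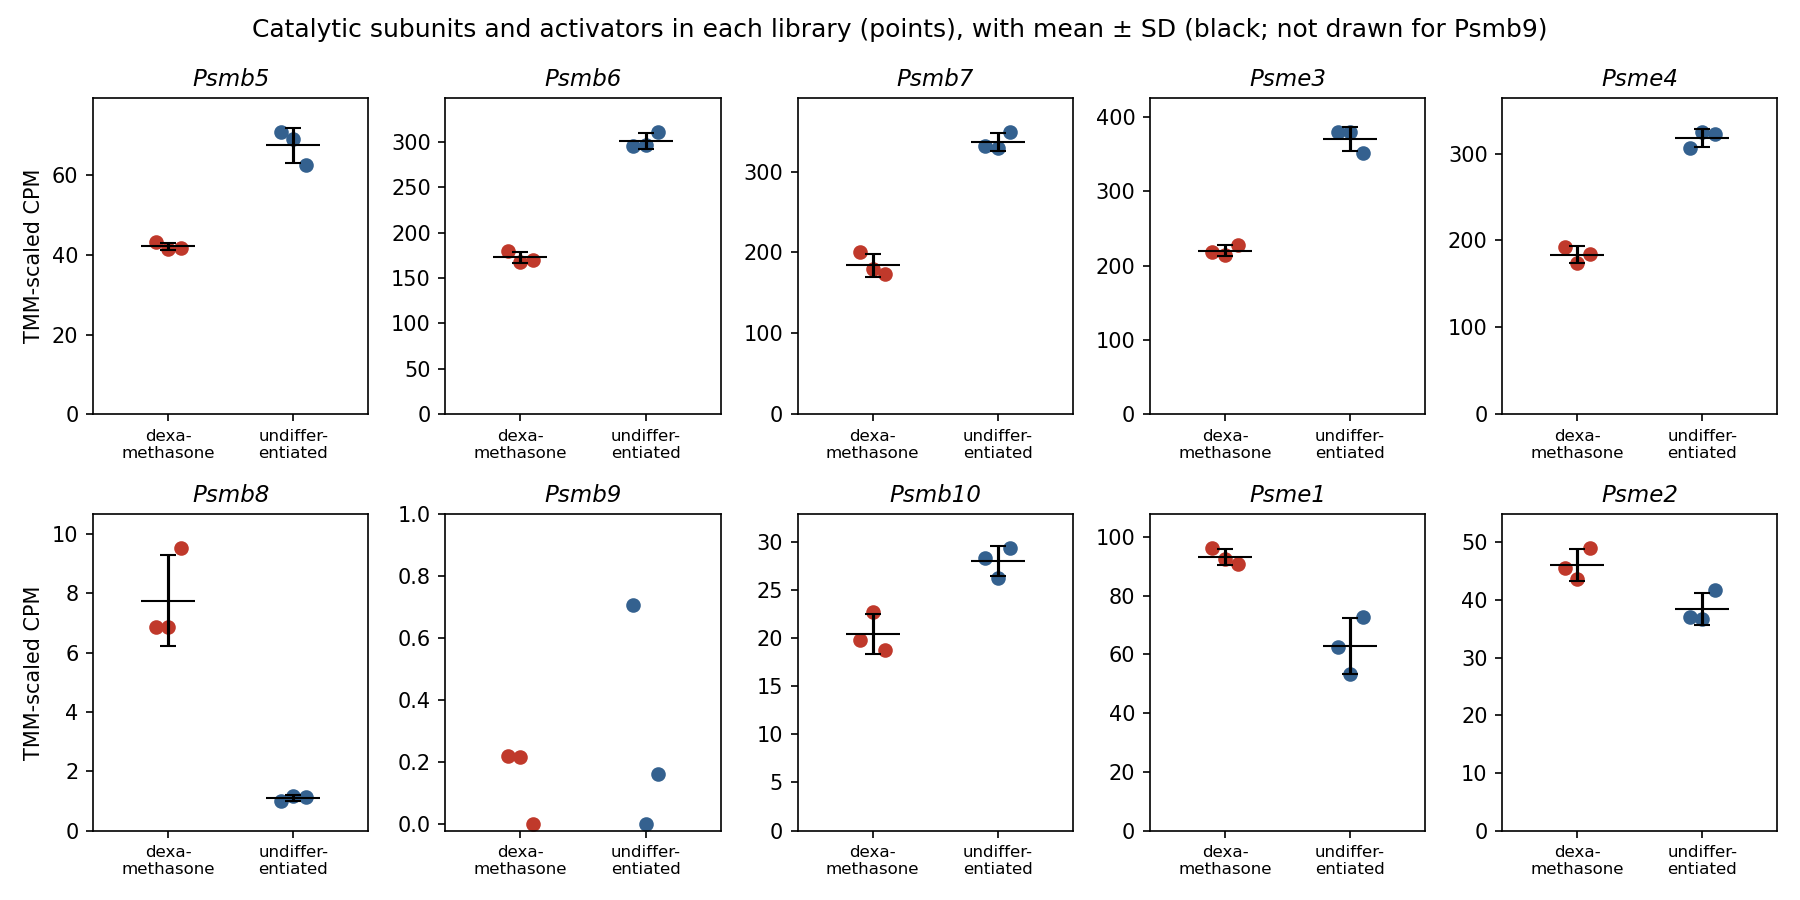
TMM-scaled CPM (vertical axes, linear, each with its own range) of the constitutive catalytic genes, their immunoproteasome counterparts and the activators, with 1 point per library, dexamethasone in red at the left and undifferentiated in blue at the right of each panel, and mean ± SD in black (n = 3 each, not drawn for Psmb9). Psmb8, Psme1 and Psme2 are higher in dexamethasone libraries, the 3 constitutive genes, Psmb10, Psme3 and Psme4 are lower, and Psmb9 lies below 1 CPM in every library.

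Levels of different genes were set against each other per kilobase of merged exon (TMM-scaled CPM per kilobase, RPKM). On that scale Psmb8 averaged 2.29 ± 0.455 in dexamethasone libraries and 0.323 ± 0.0261 in undifferentiated libraries (SD, n = 3 each), while Psmb5 averaged 46.9 ± 0.975 and 75.1 ± 4.96. Within each library Psmb8 came to 4.23%, 4.40% and 6.06% of Psmb5 in the dexamethasone group and to 0.371%, 0.441% and 0.483% in the undifferentiated group, an 11.3-fold higher mean ratio (log2 difference 3.49). With the length of the principal transcript, a scale chosen after the data were seen, these shares were 8.78%, 9.13% and 12.6% in the dexamethasone group and 0.770%, 0.915% and 1.00% in the undifferentiated group. The share thus depends on the length used, while its difference between the groups does not, since lengths cancel there. Psmb5 shares 32.9% of its 75-base words with Gm3375 and 12.1% of its exon bases with Mir686. The percentages of Psmb5 are therefore uncertain as well. Psmb10 came to 19.8%, 25.6% and 21.8% of Psmb7 in the dexamethasone group and 17.2%, 16.0% and 16.9% in the undifferentiated group (log2 difference 0.42), and on principal transcripts to 8.75%, 11.3% and 9.60%, against 7.57%, 7.06% and 7.46%. Psmb7 fell further than Psmb10, so their ratio was higher although both genes were lower. Each of the 3 ratios that could be formed, the third being Psme1 over Psme3, had groups that did not overlap, with an exact two-sided permutation p of 0.1 (0.1 after adjustment over the 3), the smallest that 3 against 3 libraries can give. Ratios of Psmb9 over Psmb6 and Psma8 over Psma7 were not formed, since libraries at 0 reads occur in them.

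Transcripts of the 19S cap fell too. All 17 cap genes were tested and lower, beside 38.6% of all tested genes called lower. Their median log2 fold change was -0.81 (1.75-fold lower), with a range of -1.27 to -0.32. Over the 31 tested 26S genes the standard deviation of the log2 fold changes was 0.23, beside a median standard error of 0.055 for a single gene. The genes therefore differed from each other by more than their own error, and the plot of all changes shows the order.

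**Figure D2:**
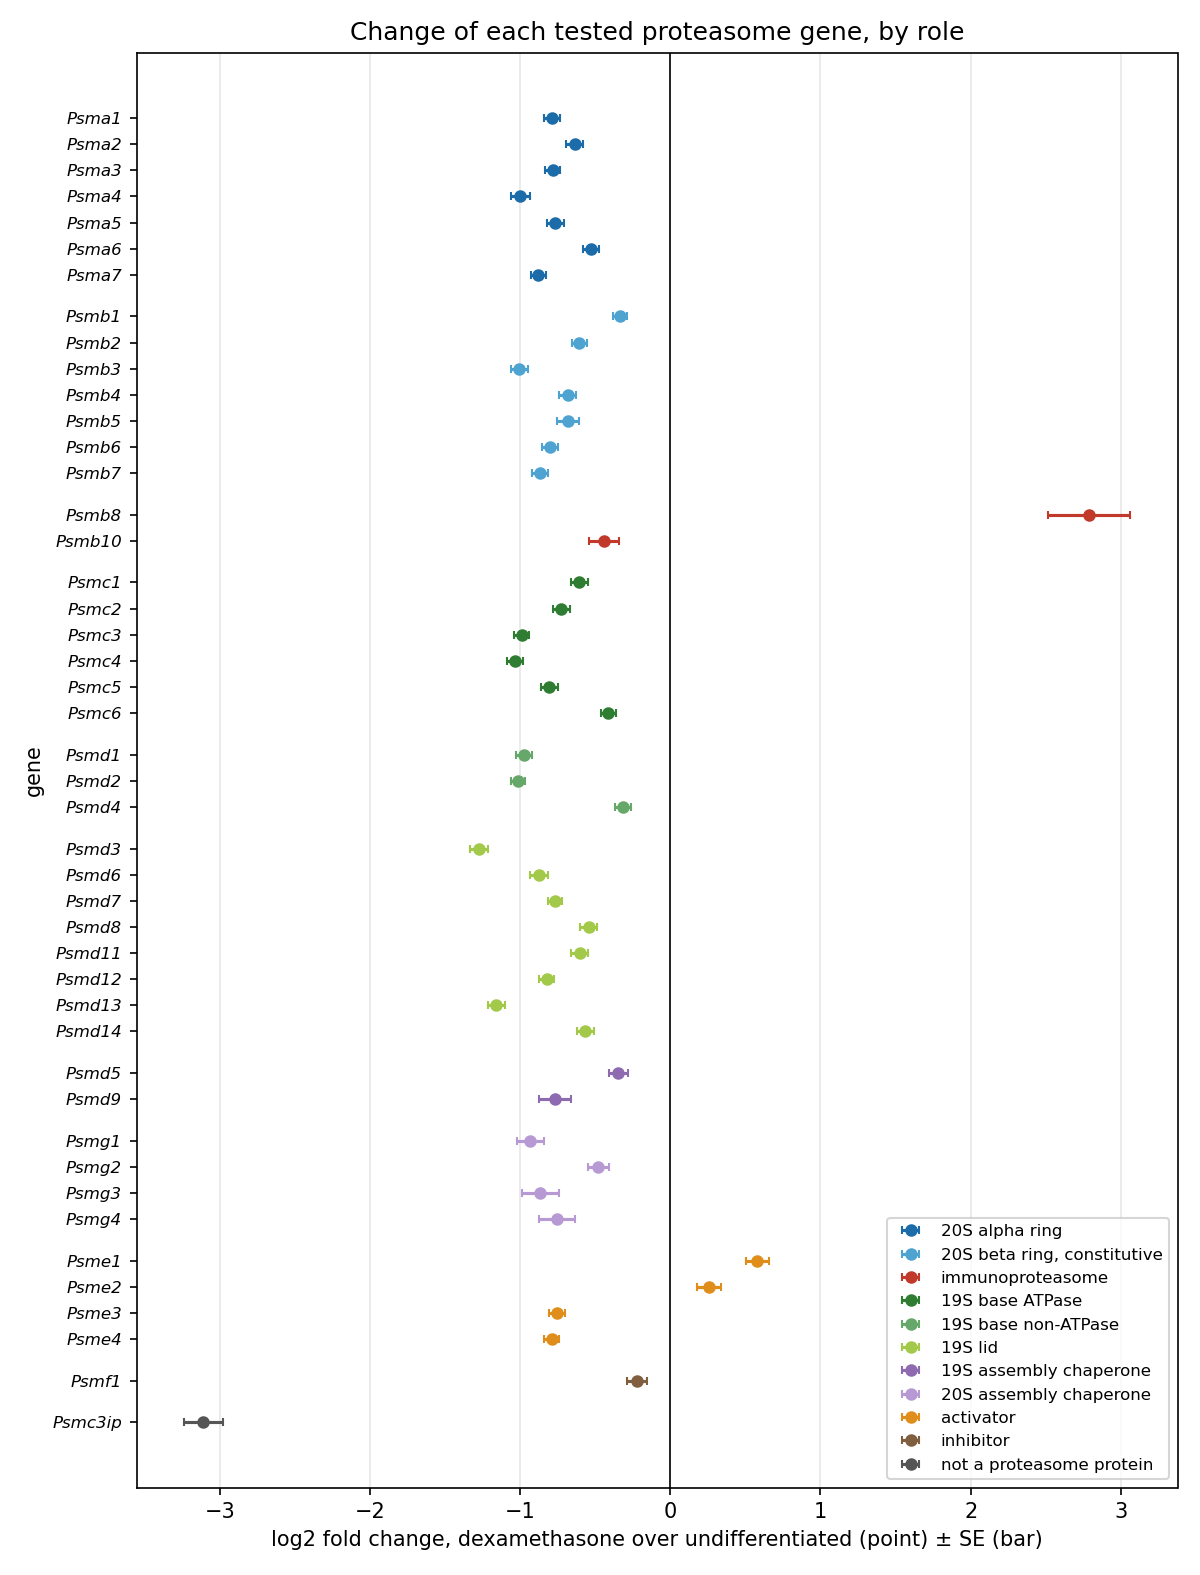
Log2 fold change, dexamethasone over undifferentiated (horizontal axis), of each of the 45 tested genes, ordered and coloured by role, as a point with a bar for ± SE from edgeR. The core, the cap and the assembly factors lie between -1.27 and -0.32, Psmb8, Psme1 and Psme2 lie right of 0, and Psmc3ip lies furthest left.

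The base ATPases, the motor that unfolds substrates, had a median of -0.77 over 6 genes. Psmc4 fell furthest, with 114, 123 and 123 CPM in dexamethasone libraries and 253, 245 and 241 CPM in undifferentiated libraries (log2 fold change -1.04 ± 0.053 SE, edgeR adjusted p = 4.14e-16). Its groups lay far apart beside their own spread. Psmc3 was close to it at -0.99, Psmc5, Psmc2 and Psmc1 were at -0.81, -0.73 and -0.61, and Psmc6 had the smallest fall at -0.41 ± 0.051. The non-ATPase base genes Psmd1 and Psmd2 encode the large scaffold subunits of the base. Psmd2 had 286, 289 and 275 CPM in dexamethasone libraries and 574, 574 and 573 CPM in undifferentiated libraries (log2 fold change -1.02 ± 0.047 SE, edgeR adjusted p = 4.98e-17), and Psmd1 was at -0.98. The third, Psmd4, encodes a receptor for ubiquitin chains. It had 197, 195 and 205 CPM in dexamethasone libraries and 259, 231 and 252 CPM in undifferentiated libraries, a fall of -0.32 ± 0.053 (SE, edgeR adjusted p = 5.77e-06), the smallest of the 26S genes although its groups did not overlap.

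The lid, which removes ubiquitin from substrates, had a median of -0.80 over 8 genes. Psmd3, a scaffold subunit of the lid (ENSMUSG00000017221, chromosome 11, 98682554 to 98695979), had the largest fall of the 26S genes. It had 134, 150 and 162 CPM in dexamethasone libraries and 365, 359 and 354 CPM in undifferentiated libraries (log2 fold change -1.27 ± 0.058 SE, 2.42-fold lower, edgeR adjusted p = 2.52e-17). Even its highest dexamethasone library lay far below its lowest undifferentiated library. Psmd13 was next at -1.16 ± 0.057. Psmd14, the deubiquitinase of the lid, was at -0.57 ± 0.057, and its catalytically inactive partner Psmd7 at -0.77 ± 0.049. Psmd6, Psmd8, Psmd11 and Psmd12 were at -0.88, -0.54, -0.60 and -0.82.

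Summed over genes, all 50 took 0.626%, 0.605% and 0.618% of counted reads in dexamethasone libraries and 0.946%, 0.923% and 0.941% in undifferentiated libraries, so the share was lower in each dexamethasone library. The core took 0.256% ± 0.00685 and 0.380% ± 0.00577, and the cap 0.276% ± 0.00354 and 0.443% ± 0.00683 (dexamethasone and undifferentiated, SD, n = 3 each). Summed cap reads over summed core reads came to 1.05, 1.08 and 1.10 in dexamethasone libraries and 1.18, 1.17 and 1.16 in undifferentiated libraries. These ratios did not overlap, and the difference was not tested. The immunoproteasome genes summed to 0.00296% ± 0.000176 and 0.00281% ± 0.000154 (dexamethasone and undifferentiated, SD, n = 3 each), with groups that overlapped.

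**Figure D3:**
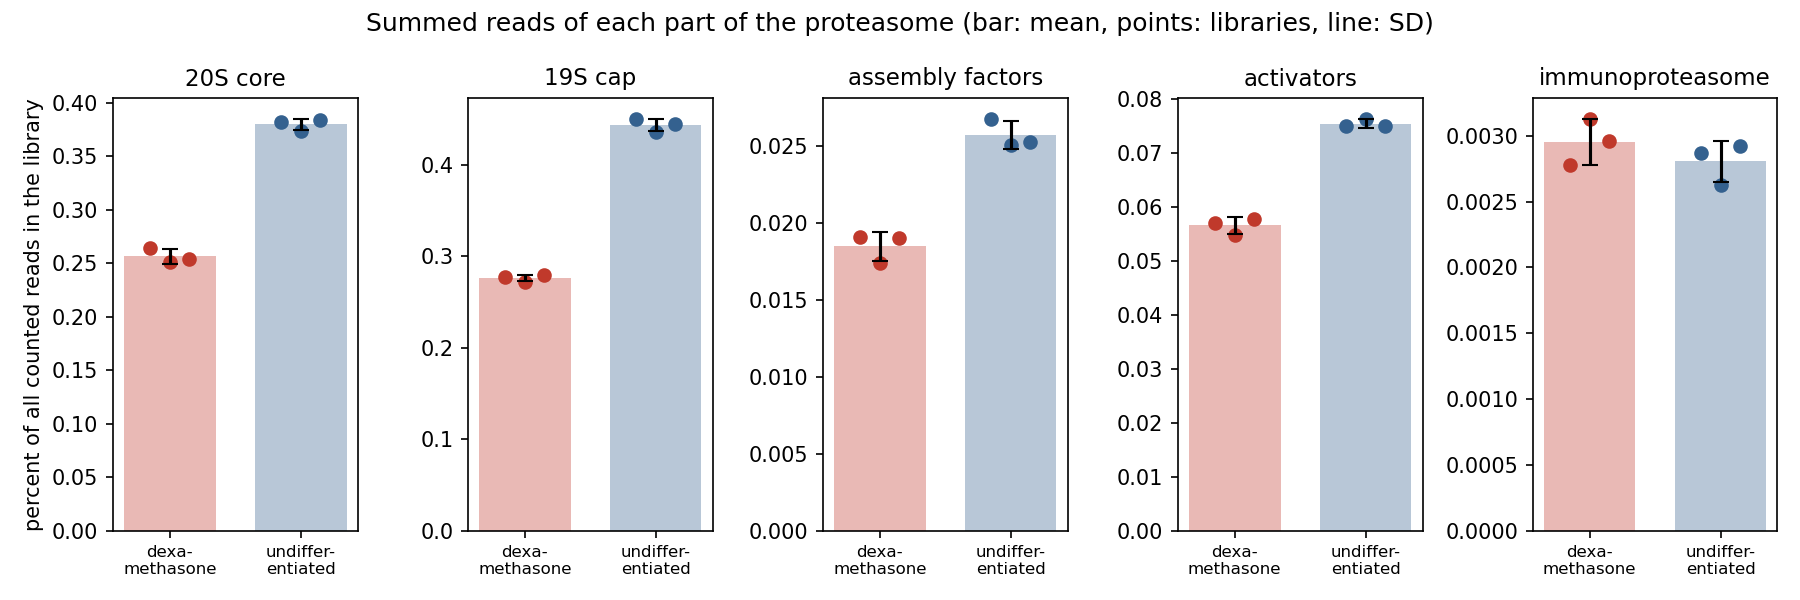
Summed reads of each class of proteasome genes in percent of all counted reads of the library (vertical axes from 0, each with its own range), as the group mean (bar), the 3 libraries (points) and the SD (line), dexamethasone in red at the left and undifferentiated in blue at the right. The core, cap, assembly and activator shares are lower in all 3 dexamethasone libraries, and the immunoproteasome shares overlap.

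Subunits that occur in equal number in the particle did not have equal transcript levels. Per kilobase of merged exon the tested core genes ranged from 30.8 (Psmb3) to 258 (Psma6) RPKM in dexamethasone libraries and from 56.1 (Psma2) to 373 (Psma6) RPKM in undifferentiated libraries. The cap genes ranged from 14.8 to 149 RPKM and from 22.5 to 262 RPKM (dexamethasone and undifferentiated), with Psmd11 lowest and Psmc5 highest in both groups. With the length of the principal transcript in place of merged exons, the core ranged from 45.6 to 306 RPKM and from 70.8 to 500.0 RPKM (dexamethasone and undifferentiated). The lowest core gene was then Psma2 in both groups and the highest was Psma6 in dexamethasone and Psma7 in undifferentiated libraries, so the order of levels depends on the length used.

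Transcripts of the assembly factors fell with those of the core and the cap. All 6 tested genes were lower, with a median log2 fold change of -0.76, beside 38.6% of all tested genes called lower. Psmg1, which pairs with Psmg2 to assemble the alpha ring, had 34.0, 27.0 and 34.7 CPM in dexamethasone libraries and 66.7, 56.5 and 58.4 CPM in undifferentiated libraries (log2 fold change -0.93 ± 0.090 SE, edgeR adjusted p = 3.11e-10). Its groups did not overlap. Psmg2 was at -0.48 ± 0.068, and the second chaperone pair, Psmg3 and Psmg4, at -0.87 ± 0.124 and -0.76 ± 0.120. Of the chaperones of the cap base, Psmd9 had 18.4, 14.8 and 16.7 CPM in dexamethasone libraries and 30.2, 27.5 and 27.1 CPM in undifferentiated libraries (log2 fold change -0.77 ± 0.105 SE, edgeR adjusted p = 2.09e-07), and Psmd5 fell less, at -0.35 ± 0.066. Psmd10, known as gankyrin, had 0, 0 and 1 reads in dexamethasone libraries and 0, 1 and 0 reads in undifferentiated libraries. None of the 75-base words of its transcripts occurs in another annotated gene, but copies elsewhere in the genome were not searched. Psmd10 had too few reads to test.

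The activator genes moved both ways, also within the PA28 family. The PA28 alpha and beta genes Psme1 and Psme2, whose products form a ring on the core, were higher. Psme1 (ENSMUSG00000022216, chromosome 14, 55578123 to 55581529) had 96.2, 92.4 and 90.8 CPM in dexamethasone libraries and 62.5, 53.4 and 72.7 CPM in undifferentiated libraries (log2 fold change 0.58 ± 0.077 SE, 1.49-fold, edgeR adjusted p = 1.42e-07). Psme2 (ENSMUSG00000079197, chromosome 14, 55587441 to 55591113) had 45.6, 43.6 and 49.0 CPM in dexamethasone libraries and 37.0, 36.7 and 41.7 CPM in undifferentiated libraries (log2 fold change 0.26 ± 0.080 SE, 1.20-fold, edgeR adjusted p = 0.00481). Both sets of libraries were separate, that of Psme2 by less than 2 CPM, and 22.9% of the words of Psme2 also occur in Psme2b, which had 0 reads in every library. The nuclear PA28 gamma gene Psme3 had 218, 214 and 228 CPM in dexamethasone libraries and 380, 380 and 352 CPM in undifferentiated libraries (log2 fold change -0.75 ± 0.051 SE, edgeR adjusted p = 1.86e-13). Psme4, which encodes the activator PA200, had 193, 174 and 184 CPM in dexamethasone libraries and 306, 325 and 322 CPM in undifferentiated libraries (log2 fold change -0.79 ± 0.052 SE, edgeR adjusted p = 1.24e-13). These falls are close to the median of the core. Summed Psme1 and Psme2 reads over those of Psme3 and Psme4 came to 0.345, 0.350 and 0.339 in dexamethasone libraries and 0.145, 0.128 and 0.170 in undifferentiated libraries. Per kilobase, Psme1 came to 58.8%, 57.6% and 53.2% of Psme3 in the dexamethasone group and 21.9%, 18.7% and 27.6% in the undifferentiated group (log2 difference 1.33). On principal transcripts it came to 106%, 103% and 95.5% of Psme3 in the dexamethasone group and 39.4%, 33.6% and 49.6% in the undifferentiated group, so which of both genes had the higher level in dexamethasone libraries depends on the length used.

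Psmf1, which encodes the inhibitor PI31, had the smallest change of all. It had 54.3, 52.8 and 52.4 CPM in dexamethasone libraries and 64.4, 58.8 and 62.8 CPM in undifferentiated libraries (log2 fold change -0.22 ± 0.068 SE, edgeR adjusted p = 0.00493). The call is lost with library totals as the scale (-0.09, edgeR adjusted p = 0.205) and with upper quartile factors (-0.12, edgeR adjusted p = 0.12). Psmc3ip, known as HOP2, helps recombinases to pair DNA strands and was set apart from the proteasome. It had 4.54, 3.49 and 4.47 CPM in dexamethasone libraries and 34.5, 35.4 and 37.7 CPM in undifferentiated libraries, an 8.63-fold fall (log2 fold change -3.11 ± 0.130 SE, edgeR adjusted p = 4.92e-18). Its fall lay far outside the range of the proteasome subunits. All 5 tested genes of its recombination partners also fell, with a median log2 fold change of -3.47, beside 38.6% of all tested genes called lower. Brca1 was 11.1-fold lower, and the meiotic recombinase gene Dmc1 had 0 reads.

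Genes whose proteins bind or complete the proteasome but carry other names were mostly lower as well. Of 11 tested genes of that list 7 were lower and 2 higher, with a median log2 fold change of -0.61. Of all tested genes 38.6% were called lower and 40.3% higher. Uchl5, a deubiquitinase of the cap, averaged 49.4 ± 1.51 CPM in dexamethasone libraries and 168 ± 5.70 CPM in undifferentiated libraries (SD, n = 3 each), a fall of -1.76 ± 0.060 on the log2 scale (SE, edgeR adjusted p = 4.77e-20), beyond that of any 26S gene. Pomp, the chaperone that finishes the core, was 1.84-fold lower. Akirin2, which brings proteasomes into the nucleus, rose (log2 fold change 0.32), and Fbxo7, a ubiquitin ligase subunit that binds Psmf1's product, was 1.19-fold higher (edgeR adjusted p = 0.0323). The call of Fbxo7 was lost without undifferentiated replicate 2 (adjusted p = 0.209), dexamethasone replicate 1 (adjusted p = 0.101) or dexamethasone replicate 3 (adjusted p = 0.0809). Of 10 genes of ubiquitin shuttles and the segregase p97, 7 were lower and 1 higher (median -0.43), beside the same shares of all tested genes. With upper quartile factors and with library totals 6 were lower (medians -0.33 and -0.31). The call of Rad23b was lost there (edgeR adjusted p = 0.103 and 0.203). Vcp, which encodes p97, averaged 357 ± 24.0 CPM in dexamethasone libraries and 614 ± 21.9 CPM in undifferentiated libraries (SD, n = 3 each, 1.72-fold lower), Ubqln4 was 1.57-fold lower and Faf2, an adaptor of p97, 1.33-fold higher. The 8 genes of the CCT chaperonin, another large ring complex, all fell (median -1.15), Cct7 by 2.65-fold and Cct8 by 2.53-fold.

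**Figure D4:**
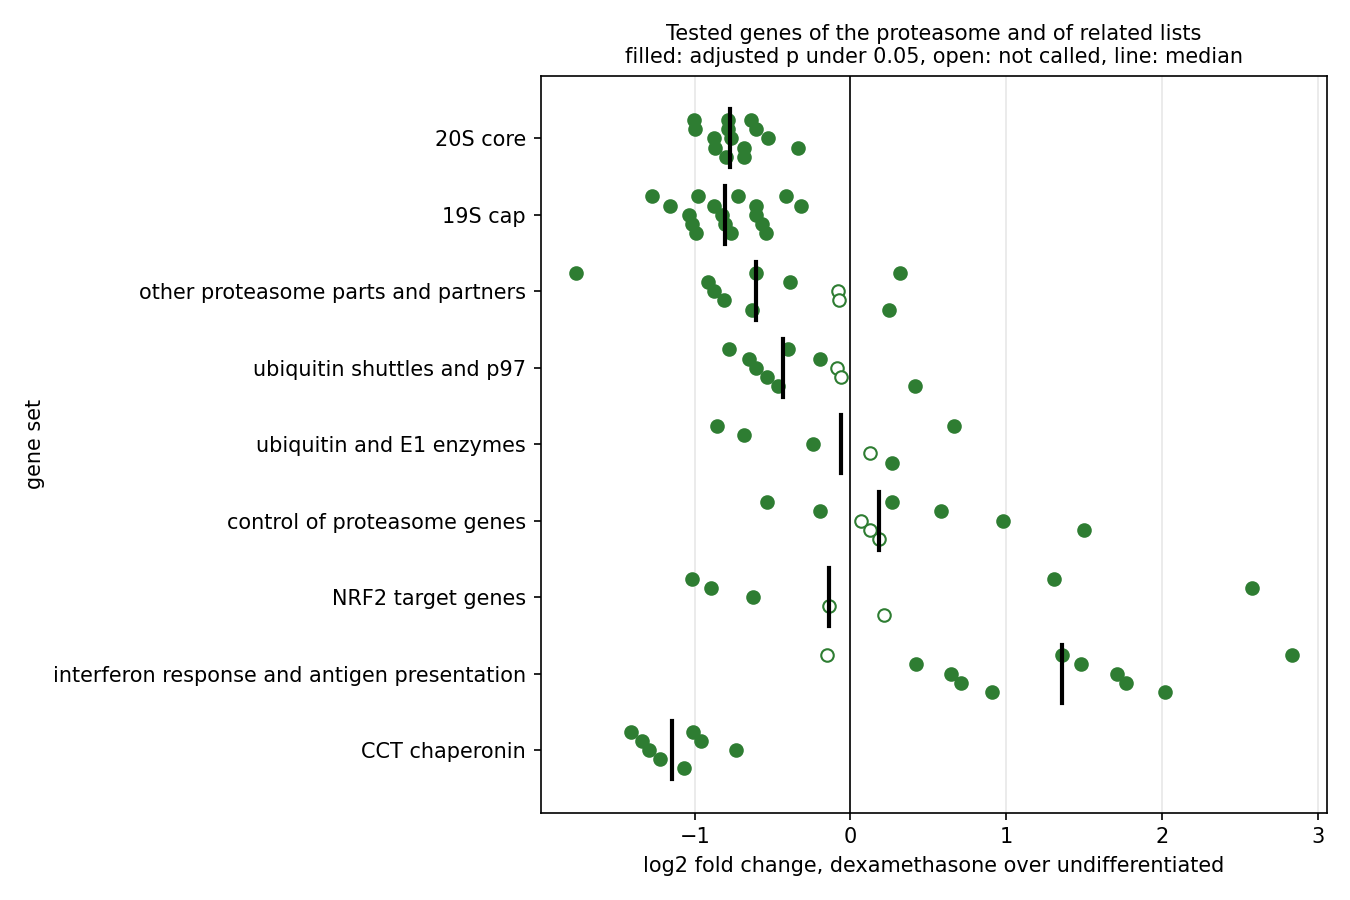
Log2 fold change, dexamethasone over undifferentiated (horizontal axis), of the tested genes of the core, the cap and 7 related lists (rows), filled where edgeR's adjusted p was under 0.05 and open where it was not, with a line at the median of the list. The core, the cap and the CCT chaperonin lie wholly left of 0, the interferon and antigen presentation list lies right of 0 but for Erap1, and the other lists spread to both sides.

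Genes of ubiquitin supply and of proteasome gene control were called in both directions, as were tested genes at large (40.3% higher and 38.6% lower), so the counts of these short lists are no result about them. Of 6 genes of ubiquitin and its activating enzymes 2 were higher and 3 lower, with a median of -0.06 that turns to 0.05 and 0.07 with upper quartile factors and library totals. Ubb, a polyubiquitin gene, averaged 378 ± 49.1 CPM in dexamethasone libraries and 314 ± 30.0 CPM in undifferentiated libraries (SD, n = 3 each) and was 1.20-fold higher with groups that overlapped. Uba1, the main activating enzyme, was 1.61-fold lower. Nfe2l1 encodes NRF1, the factor that is known to raise proteasome genes when proteasome activity falls. It averaged 563 ± 0.763 CPM in dexamethasone libraries and 200 ± 8.90 CPM in undifferentiated libraries (SD, n = 3 each), a 2.82-fold rise (edgeR adjusted p = 2.96e-20). Its messenger RNA was higher where those of 31 of 31 tested 26S genes were lower. A link between them was not tested, and NRF1 protein and its activity were not measured. Nfe2l2, which encodes NRF2, rose 1.97-fold, the partner gene Maff fell 1.45-fold, and Keap1, the repressor of NRF2, fell 1.15-fold, a call lost with upper quartile factors (edgeR adjusted p = 0.244) and library totals (edgeR adjusted p = 0.379), and also without undifferentiated replicate 1 (edgeR adjusted p = 0.0776) or 2 (edgeR adjusted p = 0.0585). Of these 9 control genes 4 were higher and 2 lower, and 6 and 1 under both of those scalings.

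Of 7 known target genes of NRF2, 2 rose and 3 fell. Of all tested genes 40.3% were called higher and 38.6% lower, so these counts are no result about the list. Slc7a11, the cystine transporter, averaged 150 ± 10.46 CPM in dexamethasone libraries and 25.2 ± 0.969 CPM in undifferentiated libraries (SD, n = 3 each, 5.97-fold), and Srxn1 rose 2.47-fold. Gclc, for glutathione synthesis, fell 2.02-fold and Txnrd1, a thioredoxin reductase, 1.86-fold. Among 4 tested genes of a list known from glucocorticoid-induced muscle atrophy, 2 were higher and 1 lower, which is likewise no result about that list. Foxo3, a transcription factor of that response, rose 3.96-fold, and Fbxo30 fell 1.32-fold. Trim63, a muscle ubiquitin ligase gene known as MuRF1, had 153 reads over the dexamethasone libraries and 2 reads over the undifferentiated libraries, a ratio of scaled reads of 64.7 with an exact 95% counting interval of 17.6 to 539. Both reads lay in undifferentiated replicate 2, without which the fitted log2 fold change moved to 8.56, beside 5.79 with it. The other ligase of that programme, Fbxo32, had 0 reads in every library.

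Genes of antigen presentation and the interferon response, which are known to be induced together with the immunoproteasome, were higher. Of 15 listed genes 11 were tested, 10 were higher and none lower, with a median log2 fold change of 1.36, beside 40.3% of all tested genes called higher. Tap2, a chain of the peptide transporter that takes proteasome products into the endoplasmic reticulum, averaged 35.3 ± 2.52 CPM in dexamethasone libraries and 4.90 ± 0.635 CPM in undifferentiated libraries (SD, n = 3 each, 7.13-fold, edgeR adjusted p = 3.89e-17). Tapbp, tapasin, averaged 111 ± 3.01 CPM and 34.0 ± 2.38 CPM (dexamethasone and undifferentiated, SD, n = 3 each, 3.28-fold, edgeR adjusted p = 2.4e-18). The direction of Psmb8, Psme1 and Psme2 was that of these genes, and the direction of Psmb10 was not. Psmb9, which overlaps the start of Tap1 on the opposite strand of chromosome 17, had 4 reads over the dexamethasone and 6 over the undifferentiated libraries, whereas Tap1 had 33, 29 and 34 reads in dexamethasone libraries and 11, 8 and 10 reads in undifferentiated libraries. Erap1, which trims peptides, missed the threshold (-0.15 ± 0.093 on the log2 scale, SE, edgeR adjusted p = 0.14). Nlrc5, Ifit1, Isg15 and Gbp2 had too few reads to test.

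Markers of immune cells, in which immunoproteasome genes are strongly expressed, were at or near 0. Of 6 immune cell markers none was tested, Ptprc, Itgam and Cd3e had 0 reads in every library, and the 6 summed to 0.218 to 0.596 CPM in dexamethasone libraries and 0 to 0.848 CPM in undifferentiated libraries. Of 4 endothelial markers only Pecam1 was tested, and it was 1.69-fold higher. Of 4 fibroblast markers 2 were tested, of which Dcn was 2.12-fold higher and Col1a1 was not called (edgeR adjusted p = 0.0772, and 0.0232 without dexamethasone replicate 3). Of 6 glial markers 2 were tested, 1 was higher (Mbp, 2.86-fold) and 1 lower. The 4 endothelial markers summed to 33.4 to 35.7 CPM in dexamethasone libraries and 18.3 to 21.3 CPM in undifferentiated libraries, the 4 fibroblast markers to 18.2 to 20.2 CPM and 9.74 to 13.3 CPM, and the 6 glial markers to 3.42 to 5.23 CPM and 3.96 to 5.10 CPM, with Mog at 0. The part of these other cell type markers in the values of Psmb8, Psme1 and Psme2 was not tested.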

How the data were processed

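Messenger RNA of 3 dexamethasone and 3 undifferentiated CAD samples was sequenced as 75-base reads. The submitters' processing notes name HISAT2 2.2.0, Trim Galore 0.6.4 and Subread 1.6.4, and build GRCm38.p6. The deposited values are raw counts, which the authors made, per the file headers, with featureCounts 1.6.4 over Ensembl 96 genes, by strand (setting 1). Reads with several alignments or several overlapping genes were left out, so genes with near-identical copies lose reads.

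filterByExpr (minimum count 10, minimum total 15) kept 12664 genes with 99.8% of reads. They were scaled by TMM and tested with edgeR 4.0.16 (glmQLFit, glmQLFTest, R 4.3.3), the group being the only term, after a trial on simulated counts. A standard error is the log2 fold change over the square root of F. Alternatives were other scalings and filters, DESeq2 1.42.0, limma voom (limma 3.58.1), protein-coding genes alone, an adjusted p under 0.01, a test against a fold of 1.5, a pseudocount of 1 read in the ratios, each library left out and the replicate number as a block. Replicates were no copies of each other (chi-square over degrees of freedom 1.69 to 3.34).

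The genes and lists were chosen with earlier results of these data known. The rule named the catalytic and immunoproteasome genes, in each role the called genes with the largest rise and fall, Psmc3ip, and from every other list at most 2 called genes a direction, those with the lowest adjusted p among genes of 1 CPM or more. Other named genes, such as the smallest falls of a role and Tap1, were chosen after their values were seen. Of the genes that the rule named, some are not reported here. Promoter sequences are RefSeq's on GRCm38.p6.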

Additional observations from a re-analysis of the deposited data

How the results depend on the processing

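All 45 calls and directions were kept under each alternative run gene by gene, other than the call of Psmf1, which was lost with upper quartile factors and with library totals. The test against a fold of 1.5 was run on the counts of calls. It left 1 gene higher and 26 lower, of which 9 were core, 11 cap and 3 assembly genes. Over all tested genes that test called 22.5% higher and 18.3% lower. The fitted rises of Psme1 (1.49-fold) and Psme2 (1.20-fold) lie under a fold of 1.5. Medians moved with the scale. Upper quartile factors gave -0.66 for all tested proteasome genes, -0.67 for the core and -0.70 for the cap. Library totals gave -0.64, -0.65, -0.68 and, for the activators, -0.12. These scalings shift the median of all tested genes by 0.10 and 0.13 (log2), so small changes such as those of Psmf1 and Psme2 are relative to the scale, and changes per cell were not measured. With each library left out in turn, 3 genes were higher and 42 lower in all 6 runs (14 core, 17 cap and 6 assembly genes lower). Over all tested genes those runs called 39.1% to 39.5% higher and 36.3% to 37.8% lower. The medians then ranged from -0.77 to -0.74 (all), -0.81 to -0.74 (core), -0.86 to -0.76 (cap), -0.81 to -0.74 (assembly factors) and -0.28 to -0.21 (activators). The log2 ratio differences ranged from 3.33 to 3.59 for Psmb8 over Psmb5, from 0.32 to 0.50 for Psmb10 over Psmb7 and from 1.20 to 1.48 for Psme1 over Psme3. Same-numbered libraries of the groups did not deviate together (correlations -0.095, 0.036 and -0.071). This check cannot exclude that same-numbered samples were handled together. With the replicate number as a block 3 genes were higher and 42 lower, beside 39.6% and 37.9% of all tested genes. Few reads limit what can be said of Psmb9, Psmb11 and Psmd10, with at most 5 reads in a library. The same holds for Psmb8, with 7 to 9 reads in undifferentiated libraries. Why Psmd10 had so few reads was not tested.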
